A study of Solanum lycopersicum with 6 samples.

Results

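Transcripts of 7 tomato (Solanum lycopersicum) genes listed as type-A cytokinin response regulators were followed in dormant axillary buds, which sit where a leaf meets the stem and can grow out into side shoots. The genes were taken by gene ID, whatever their values, and all 7 IDs were found in both deposited tables, among 34075 genes. The files hold bare IDs without names, so the genes are given by ID and their place in the family rests on the list used, not on the files. Per the ID scheme, in which the first number is the chromosome, Solyc10g079600.2 and Solyc10g079700.2 lie on chromosome 10 with 9 listed IDs between them, and Solyc06g048600.3 and Solyc06g048930.4 lie on chromosome 6 with 33 between them. The other three are on chromosomes 2 (Solyc02g071220.3), 3 (Solyc03g113720.3) and 5 (Solyc05g006420.3).

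Cytokinin is a plant hormone that promotes the outgrowth of axillary buds, while auxin from the shoot tip holds them back. Its receptors start a phosphate relay that ends on response regulators in the nucleus. The type-B regulators bind DNA and switch on target genes, and the type-A genes are among the fastest of these targets to respond. Type-A proteins have the phosphate-accepting receiver domain but no DNA-binding output domain, and in Arabidopsis they dampen the signal that induced them. As fast targets of the type-B regulators, type-A transcripts are widely used as a readout of cytokinin response. These roles belong to the family, and none is known from the files for a single ID.

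RNA was sequenced from 3 genotypes with 2 samples each, all in MT (Micro-Tom, a dwarf determinate cultivar) and all harvested 25 days after germination. The genotypes were the wild type (MT), miR156-OE (titles 156OE_rep1 and 156OE_rep2), an overexpressor of the microRNA miR156 as known from the study, and rSBP15, known from the study as a line expressing an SBP15 gene that resists miR156, whose titles read rSBP15OE. MiR156 represses SBP-box transcription factor genes, SBP15 among them, so that the lines push the same regulatory node in opposite directions. The promoters of the transgenes and the number of independent lines are not given in the sources used here. A sample held about 20 buds from 4 to 5 plants, and the labels do not say whether the samples of a genotype came from separate sowings, so p-values measure the spread between pooled samples only. In such bulk samples, fewer cells that express a gene and less RNA per cell cannot be told apart.

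For each transgenic line against MT the authors deposited a p-value and a log fold change for every gene. They did not state the base of the logarithm, so values stay on the deposited scale and are not turned into folds. Sequencing depth and expression levels are unknown, so neither the levels of the 7 genes nor the identity of the tissue could be checked. A gene is called detected here where its log fold change was other than 0, and all 7 were detected in both tables, against 24920 genes for miR156-OE and 25329 for rSBP15. The deposited p-values follow a limma-type test of 2 libraries against 2 (limma is a linear-model test that draws each gene's variance towards a common value), from which the spread between replicate libraries can be recovered. That spread is given as the standard error of the log fold change. It also sets limits on where the 2 libraries of each genotype lay, given below relative to the MT mean of the same gene.

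The type-A regulators did not move as a block in rSBP15. Solyc10g079600.2 rose and Solyc06g048600.3 fell past an adjusted p of 0.05, which 5.58% of the detected genes did (2.65% higher and 2.94% lower). Solyc03g113720.3 was nearly as far below MT but missed the threshold, and the other four did not pass. In miR156-OE, 6 of the 7 had positive log fold changes, led by Solyc10g079600.2, against 49.3% of the detected genes. The count past the threshold was 0 of 7, with 0.0201% among the detected genes. Set against each other, rSBP15 was below miR156-OE in 6 of the 7, against 46.6% of the genes detected in at least 1 table. In that comparison 0 of the 7 passed the threshold, as did 0 of all these genes.

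**Figure D1:**
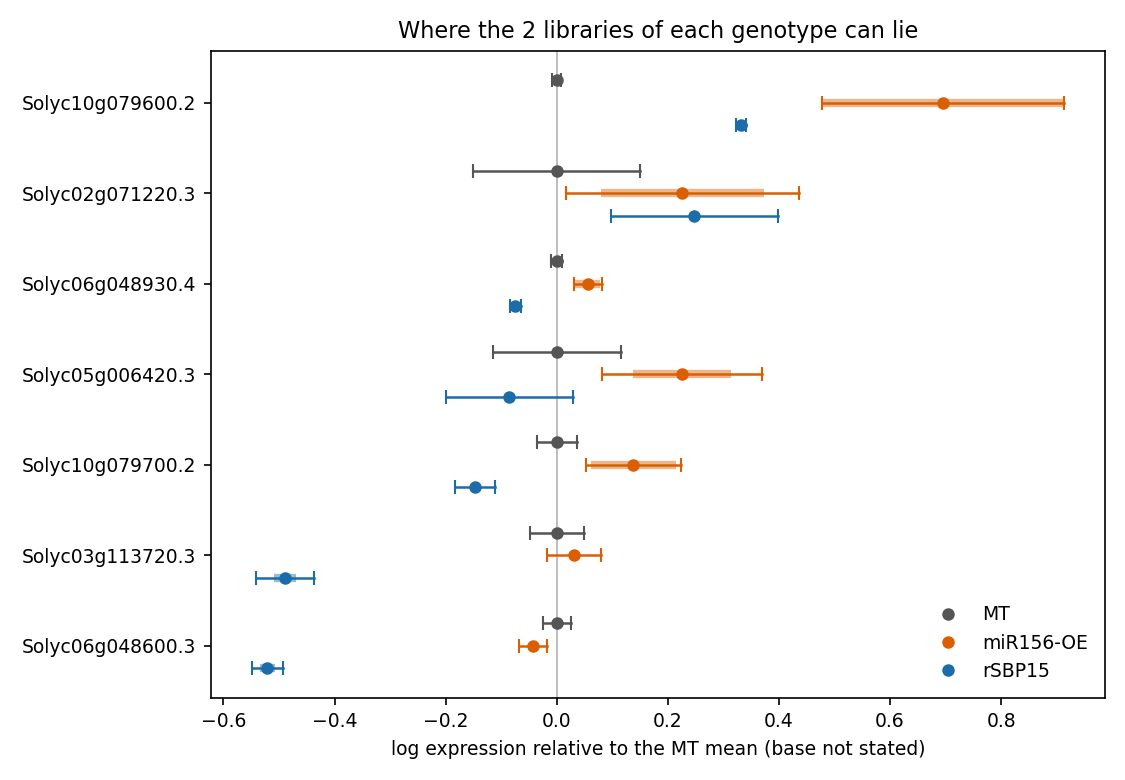
Range in which the 2 libraries of each genotype can lie for each of the 7 genes, as log expression relative to the MT mean (base not stated; points, genotype means; thin bars with end marks, the widest positions that the deposited values allow; thick bars, the narrowest, drawn where the gap cannot be 0). For Solyc10g079600.2 the miR156-OE libraries lie at 0.478 and 0.913, the rSBP15 libraries near 0.332 and the MT libraries within 0.00833 of 0.

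Solyc10g079600.2 was the member with the highest value in both lines. Its MT libraries lay within 0.00833 of their mean on the deposited log scale. The rSBP15 libraries lay between 0.323 and 0.340 above the MT mean, and those of miR156-OE at 0.478 and 0.913, where the limits leave almost no freedom. The order was thus MT, rSBP15, miR156-OE, with no overlap between the libraries of any 2 genotypes.

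For rSBP15 the authors' deposited table gave Solyc10g079600.2 a log fold change of 0.332 with a p-value of 0.000178. The recovered standard error was 0.00833 and the 95% interval ran from 0.303 to 0.360, with an adjusted p of 0.0263 (limma-type test, Benjamini-Hochberg over all detected genes). For miR156-OE the authors' deposited table gave 0.696 with a p-value of 0.0588. This larger difference had a standard error of 0.218, an interval of -0.057 to 1.45 and an adjusted p of 0.402, since the miR156-OE libraries were 0.435 apart. Only 1.6% of the detected genes had a log fold change of this size or more in miR156-OE, against 20.8% for the smaller rise in rSBP15. The call in rSBP15 depended on the test: its adjusted p was 0.0815 without moderation of the variance, and 0.230 to 0.269 with all 6 libraries, the wide miR156-OE ones included, fitted together.

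Its neighbour on chromosome 10, Solyc10g079700.2, took opposite signs in the lines. Its MT libraries lay within 0.0358 of their mean. Those of miR156-OE were above it, at 0.0534 to 0.0613 for the lower and 0.215 to 0.223 for the upper library. Those of rSBP15 lay below it, between -0.183 and -0.111. The libraries of the 3 genotypes did not overlap. In the authors' deposited tables its log fold changes were 0.138 in miR156-OE (p = 0.201) and -0.147 in rSBP15 (p = 0.0342). Neither passed after adjustment by the limma-type test, at 0.608 and 0.125, with standard errors of 0.0847 and 0.0358. The chromosome 10 genes thus had opposite signs in rSBP15 and the same sign in miR156-OE.

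The lowest values of the family were those of Solyc06g048600.3 and Solyc03g113720.3 in rSBP15. The rSBP15 libraries of Solyc06g048600.3 lay between -0.549 and -0.493 relative to the MT mean. Its MT libraries were within 0.0251 of that mean, and its miR156-OE libraries between -0.0679 and -0.0177. The deposited values do not allow the MT and miR156-OE libraries to overlap. The drop was thus present in both rSBP15 libraries, and both lay below all libraries of the other genotypes.

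In the authors' deposited table for rSBP15 the log fold change of Solyc06g048600.3 was -0.521 with a p-value of 0.0011. The standard error was 0.0283, the 95% interval -0.618 to -0.424 and the adjusted p 0.0391 by the limma-type test. The call depended on the test: the adjusted p was 0.0526 with all rows of the table in the adjustment and 0.0999 without moderation of the variance, and fell to 0.0126 or less with all 6 libraries fitted together. In miR156-OE the authors' deposited table gave -0.0428 (p = 0.187), the only negative value among the 7 genes, with an interval of -0.130 to 0.0441.

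Solyc03g113720.3 had nearly the same profile. Its rSBP15 libraries lay between -0.542 and -0.436, while those of MT were within 0.0489 of their mean and those of miR156-OE between -0.0181 and 0.0797. The rSBP15 libraries stood below all others, and the MT and miR156-OE libraries overlapped. The authors' deposited table for rSBP15 gave a log fold change of -0.489 with a p-value of 0.00546. With a standard error of 0.0529 the 95% interval was -0.671 to -0.308, and the adjusted p of 0.0602 missed the threshold in the limma-type test. It was 0.0310 when the moderation was refitted on detected genes and 0.0102 to 0.0237 with all 6 libraries fitted together, but 0.0810 with all rows in the adjustment and 0.124 without moderation. In miR156-OE the authors' deposited table gave 0.0308 (p = 0.556), with an interval of -0.138 to 0.200.

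Solyc06g048930.4, the other chromosome 6 gene, differed little from MT in size, and its libraries lay close together. Its MT libraries were within 0.0101 of their mean, those of miR156-OE between 0.0314 and 0.0809, and those of rSBP15 between -0.0849 and -0.0646. The genotypes were in the order rSBP15, MT, miR156-OE, with no overlap. In the authors' deposited tables its log fold changes were 0.0561 in miR156-OE (p = 0.115) and -0.0748 in rSBP15 (p = 0.00922). The adjusted p-values of the limma-type test were 0.498 and 0.0714, with standard errors of 0.0247 and 0.0101. A change of this size or more was seen in 58.7% of the detected genes in rSBP15, so it is small beside most changes in that line.

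The remaining genes, Solyc05g006420.3 and Solyc02g071220.3, had wide replicate libraries. For Solyc05g006420.3 the authors' deposited tables gave 0.225 in miR156-OE (p = 0.215) and -0.0854 in rSBP15 (p = 0.493). Its miR156-OE libraries lay between 0.0807 and 0.370 and could not overlap those of MT, which were at most 0.230 apart, whereas the rSBP15 and MT libraries overlapped. The intervals of -0.275 to 0.726 in miR156-OE and -0.480 to 0.309 in rSBP15 leave room for changes of either sign. The adjusted p-values were 0.621 and 0.609 (limma-type test).

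Solyc02g071220.3 was the one gene other than Solyc10g079600.2 that was above MT in both lines. The authors' deposited tables gave 0.226 in miR156-OE (p = 0.348) and 0.248 in rSBP15 (p = 0.195). Its miR156-OE libraries lay between 0.0160 and 0.436, its rSBP15 libraries between 0.0978 and 0.398, and its MT libraries up to 0.300 apart. The rSBP15 and MT libraries did not overlap, and for miR156-OE the deposited values do not decide it. With intervals of -0.500 to 0.951 and -0.267 to 0.763 and adjusted p-values of 0.724 and 0.338 by the limma-type test, neither difference passed.

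**Figure D2:**
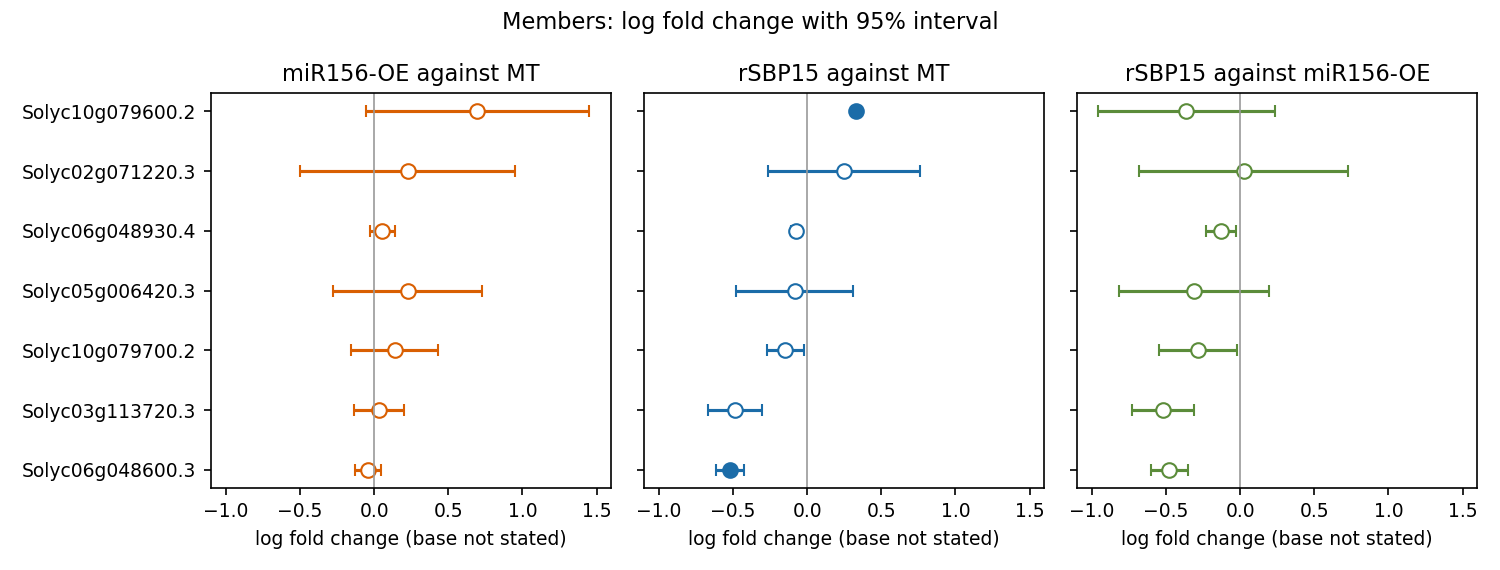
Log fold change (base not stated) of each of the 7 genes in the 3 comparisons, with the 95% interval of the limma-type test (filled points, adjusted p under 0.05; open points, not past it). In rSBP15 against MT, Solyc10g079600.2 at 0.332 and Solyc06g048600.3 at -0.521 are filled. In the other panels 0 points are filled and all 7 are open.

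The counts were read against all detected genes. In miR156-OE against MT, 0 of the 7 genes passed an adjusted p of 0.05 and 0 had an unadjusted p under 0.05 in the limma-type test, where 0.0201% and 13.2% of the detected genes did. Tested with the moderation refitted on detected genes, without moderation or with all 6 libraries, 0 of the 7 passed as well. Their libraries did not overlap those of MT in 5 of the 7, against 39.2% of the detected genes. Of these 5, 4 were higher and 1, Solyc06g048600.3, was lower. The median of the 7 genes was 0.138 on the deposited log scale, while that of all detected genes was -0.000594.

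In rSBP15 against MT, 2 of the 7 genes passed an adjusted p of 0.05, 1 higher and 1 lower. Of all detected genes, 5.58% passed (2.65% higher and 2.94% lower). An unadjusted p under 0.05 was listed for 5 of the 7, 1 higher and 4 lower, against 33.3% of the detected genes (17.1% higher and 16.2% lower). The libraries did not overlap those of MT in 6 of the 7, against 63.7% of the detected genes, a share that is itself a majority. The median log fold change was -0.0854 against 0.000527 for all detected genes. The median size was 0.248 against 0.109, and the family's values ran from -0.521 to 0.332.

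**Figure D3:**
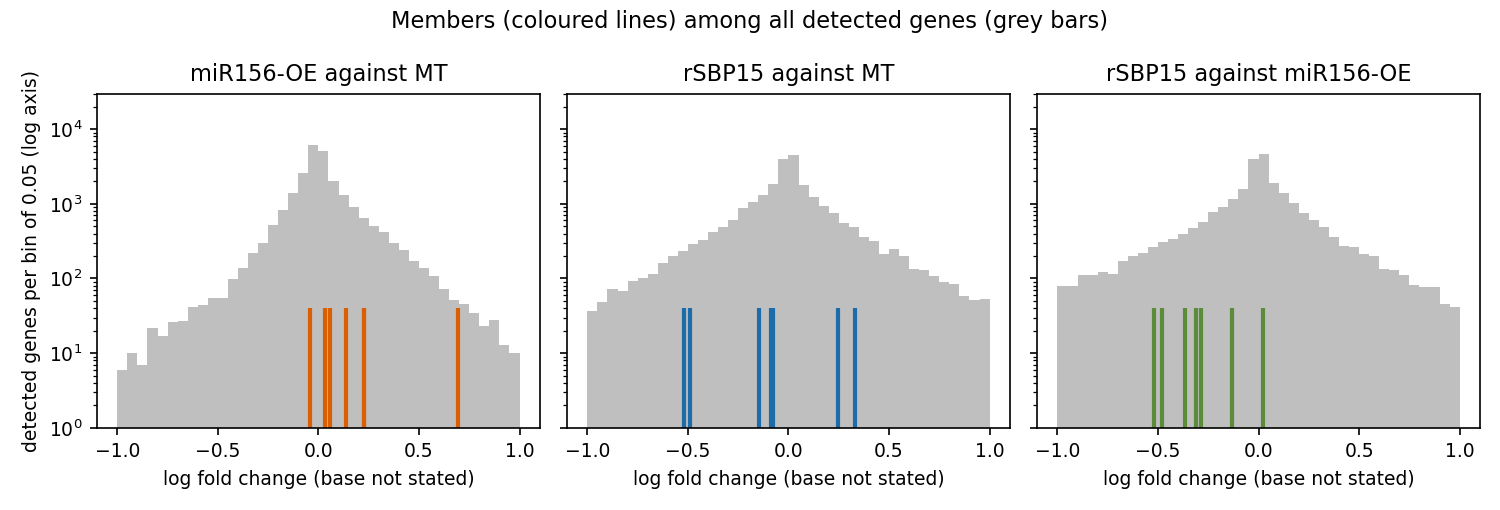
Number of detected genes per bin of log fold change (grey bars, log axis, bins of 0.05 from -1 to 1; base not stated) in each comparison, with the 7 genes as coloured lines whose height has no meaning. In rSBP15 against miR156-OE, 6 of the 7 lines lie below 0, from -0.520 to -0.131, and the seventh at 0.0221.

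The lines were then compared with each other. Both tables rest on the same MT libraries, whose mean cancels when the log fold change of miR156-OE is taken from that of rSBP15. The difference was negative, with rSBP15 lower, for 6 of the 7 genes, and the libraries of the 2 lines could not overlap in any of these 6. Over all 25657 genes detected in at least 1 table, 23.2% were lower in rSBP15 without overlap. The median difference of the 7 genes was -0.311, against 0.00163 over all genes.

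The largest differences were those of Solyc03g113720.3 at -0.520, with a 95% interval of -0.729 to -0.311, and Solyc06g048600.3 at -0.478, with an interval of -0.604 to -0.352. At the largest residual variance the tables allow, their adjusted p-values were 0.111 and 0.0991 by the limma-type test, and 0 of the 7 genes passed, as did 0 of all genes (0%). Unadjusted p-values under 0.05 were found for 4 of the 7, all lower in rSBP15, against 21.7% of all genes, with 10.6% of all genes lower in rSBP15. With all 6 libraries fitted together at the largest variance, 3 of the 7 passed. These were Solyc03g113720.3 (0.0178), Solyc06g048600.3 (0.00982) and Solyc06g048930.4 (0.0438). Of the 25657 genes detected in at least 1 table, 3702 passed.

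Solyc06g048930.4 differed between the lines by -0.131 (interval -0.234 to -0.0282, adjusted p 0.180) and Solyc10g079700.2 by -0.285 (interval -0.546 to -0.0245, adjusted p 0.209). The differences of Solyc10g079600.2 and Solyc05g006420.3 were of like size, -0.364 and -0.311, but their intervals of -0.961 to 0.233 and -0.819 to 0.197 include 0. Solyc02g071220.3 was the exception at 0.0221, with overlapping libraries and an interval of -0.684 to 0.728, which is too wide to call the lines alike.

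**Figure D4:**
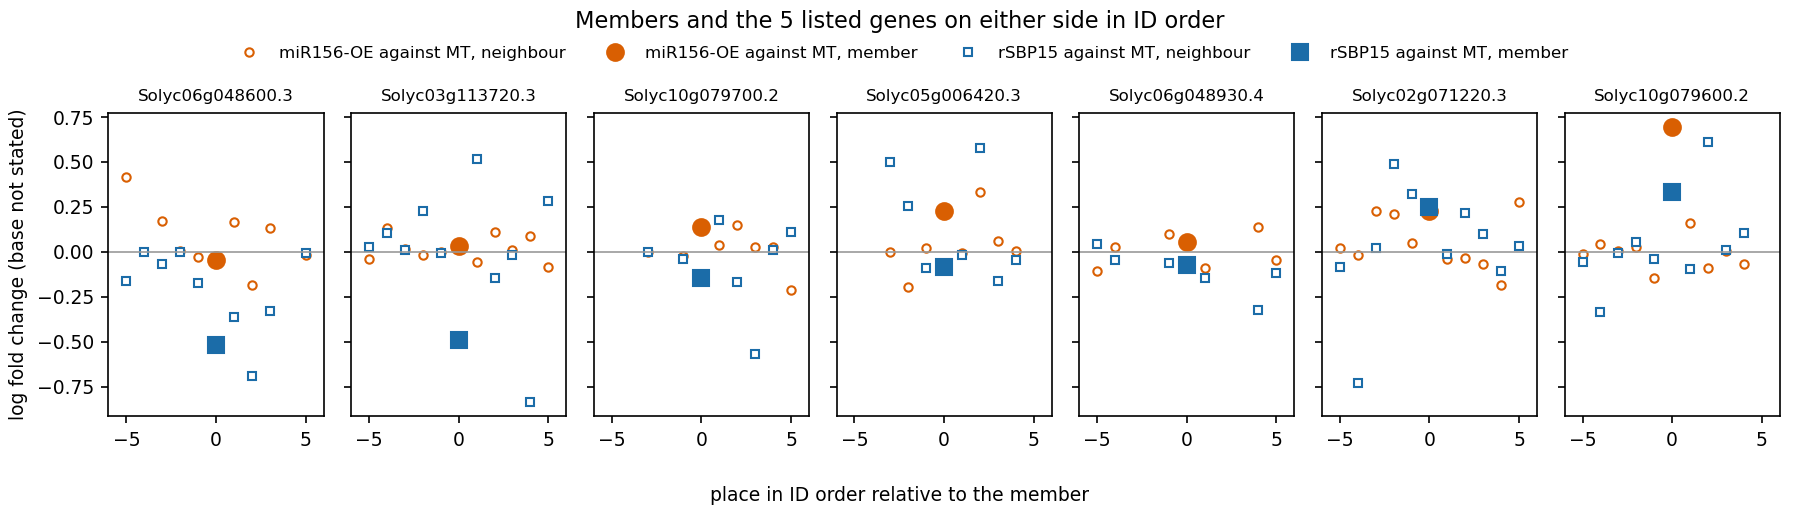
Log fold change (base not stated) of each of the 7 genes (large filled symbols) and of the detected genes among the 5 listed on either side in ID order (small open symbols), in miR156-OE (circles) and rSBP15 (squares) against MT. Solyc10g079600.2 at 0.696 in miR156-OE lies above its neighbours, which reach 0.161. In rSBP15, 7 of 9 detected neighbours of Solyc06g048600.3 are also below 0, as are 5 of 6 of Solyc06g048930.4 and 4 of 10 of Solyc03g113720.3.

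The family members were also set beside the genes next to them in ID order. Around Solyc10g079600.2, the 9 detected neighbours among the 5 IDs on either side had log fold changes from -0.143 to 0.161 in miR156-OE, so that all 9 were smaller in size than that of the gene itself. In rSBP15, 7 of its 9 detected neighbours were smaller, with a range of -0.334 to 0.611. Around Solyc03g113720.3, the 10 detected neighbours ran from -0.836 to 0.518 in rSBP15 with a median of 0.0180. Of these, 3 passed an adjusted p of 0.05 in the limma-type test. Around Solyc06g048600.3, 7 of the 9 detected neighbours had the same sign as the gene in rSBP15, and 1 passed. Their median was -0.162, against 0.000527 for all detected genes, and their lowest value was -0.689. Around the other members the same-sign count in rSBP15 ran from 4 of 10 for Solyc03g113720.3 to 5 of 6 for Solyc06g048930.4. These sign counts were not tested. Over all 7 members, 38 of 57 detected neighbours were smaller in size than their member in miR156-OE, and 39 of 58 in rSBP15. It was only 2 of 7 for Solyc05g006420.3 in rSBP15. Of all detected genes, 55.8% were at least as large in size there as this member. In miR156-OE that share was lowest for Solyc10g079600.2 (1.6%) and highest for Solyc03g113720.3 (65.0%). The rSBP15 extremes were Solyc06g048600.3 (11.0%) and Solyc06g048930.4 (58.7%). Whether neighbours differ in size from detected genes at large was not tested, so the neighbour counts do not set them apart. Of the 58 neighbours in rSBP15, 5 passed, where 5.58% of all detected genes did.

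Likeness of pattern was measured as the Euclidean distance between the pair of log fold changes of a gene and that of a family member, over 24585 other genes detected in both tables. With 2 values per gene that share the MT libraries, this describes position only. Nearest to Solyc10g079600.2 were Solyc01g109040.4 and Solyc04g007990.1, at distances of 0.0267 and 0.0355, and 20 genes lay within 0.1. Nearest to Solyc06g048600.3 were Solyc09g010030.3 and Solyc01g090670.3, both at 0.0101, and 202 genes lay within 0.1. These counts follow how densely genes lie around each point and are not compared.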

How the data were processed

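Poly(A) RNA of 6 bud samples was sequenced as stranded libraries, per the labels' protocols. HISAT2 and StringTie are named in the submitters' processing notes, without roles. The genome build, annotation, expression unit, filters, test and treatment of reads that match several family members are not given in the sources used here. The authors deposited log fold changes, of unstated base, and unadjusted p-values, per the file headers, with no value per library. Of the gene IDs, 0 matched the 41476 genes of the RefSeq table, so no other cytokinin genes are named and no sequences or coordinates are given.

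Adjusted p-values are Benjamini-Hochberg values over the genes with a log fold change other than 0. Genes detected in 1 of 4 libraries have a residual variance equal to their squared log fold change, which gave the prior of a limma fit: 0.347 degrees of freedom and a variance of 1.94e-06 for miR156-OE (1224 genes within 1e-06 in p), and 0.360 and 1.92e-06 for rSBP15 (1262 genes). From these came each gene's residual variance, its 95% interval and the limits on library positions. limma 3.58.1 (R 4.3.3), run on the recovered variances of all rows, returned the same constants. The recovery was tested on simulated data.

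That both tables share the MT libraries was checked on 402 genes with equal log fold changes other than 0, all of them negative. For rSBP15 against miR156-OE the residual variance was the sum of both recovered variances, its largest possible value, with 2 degrees of freedom. All 7 members were named whatever their result, and like genes were the 2 nearest to the member that rose most and to the one that fell most. The members, rules and alternatives were chosen with earlier results of these data known.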

Additional observations from a re-analysis of the deposited data

Results flagged for a closer look

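For 2 of the 7 genes, both miR156-OE libraries lay above both MT libraries and both rSBP15 libraries below them. The rSBP15 minus miR156-OE log fold change was -0.131 for Solyc06g048930.4 and -0.285 for Solyc10g079700.2. Tested through the shared MT libraries, these differences had adjusted p-values of 0.180 and 0.209 (limma-type test at the largest residual variance). The difference thus did not pass in either. Such opposite positions, in either order, were found in 2982 of the 24592 genes detected in both tables (12.1%).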

How the results depend on the processing

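The alternatives changed the test and not the deposited log fold changes, so no direction changed. In miR156-OE against MT, 0 of the 7 genes passed under each of the 7 alternatives run. In rSBP15 against MT, where 2 passed, 1 did with the adjustment over all rows, 0 without moderation, 0 at a threshold of 0.01 and 5 at an unadjusted p under 0.05. It was 3 with the moderation refitted and 2 in each 6-library fit, there Solyc03g113720.3 and Solyc06g048600.3 and not Solyc10g079600.2. In rSBP15 against miR156-OE, where 0 passed, 2 did at the mean residual variance, 3 and 4 with 6 libraries at the largest and smallest variance, and 4 at an unadjusted p under 0.05. Over all 25657 genes the count there went from 0 to 1994, 3702, 5961 and 5569 under the same settings, so the rise among the 7 went with a general one. The count over all genes moved as well in rSBP15 against MT, from 1414 to 544 over all rows, 3711 refitted, 43 without moderation, 2865 or 5040 with 6 libraries, and 2 at 0.01. In miR156-OE against MT it moved from 5 to 0 over all rows, refitted, at the largest variance and at 0.01, to 2 without moderation and to 224 at the smallest variance. Fits of 6 libraries assume equal variances in all genotypes, while for Solyc10g079600.2 the replicate libraries were 0.435 apart in miR156-OE and at most 0.0167 apart in MT and in rSBP15. The test of 2 libraries against 2 makes the same assumption for its own 2 genotypes, so for this gene miR156-OE against MT is affected too. Moderation fitted on all rows for the comparison of the lines was chosen after seeing the data and left 0. The mean residual variance, at which 2 passed, was marked as planned for the counts but not for the single genes. Whether it was chosen before seeing the data is thus unclear. No paired analysis was possible because single libraries have no values in the tables, and leaving out replicates was not run for the same reason.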
